A study of Mus musculus with 24 samples.

Results

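B cells sorted from tumours of B16-F0, a mouse melanoma line that makes pigment, were compared between 2 genotypes by bulk RNA sequencing, over all genes. The 6 libraries described are the 3 tumour B cell libraries labelled KO, from Foxp3-Cre Appl2 f/f mice, and the 3 labelled WT, from Foxp3-Cre mice, out of 24 libraries in the series. The series title gives the Cre allele as Foxp3-Cre-YFP, and every group, the WT label included, carries it. Cre recombinase is driven there by Foxp3, the lineage transcription factor of regulatory T cells (Tregs), so that the loxP-flanked Appl2 gene is meant to be removed in Tregs and not in the B cells measured. Lymph node B cells and tumour Tregs of the same genotypes serve below to test where tumour B cells differed. Lymph nodes were those draining the tumour. The labels do not state the age or sex of the mice, and leave unsaid if each of the 3 libraries per group is a different animal. The p-values therefore measure the spread between these libraries, which may be technical.

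B cells recognise antigen through the B cell receptor, whose ligation, together with signals through CD40 and Toll-like receptors, switches on immediate early transcription factors and NF-kB within hours. Activated cells grow, divide and may enter germinal centres, where class and affinity of the antibody change, or become plasma cells that secrete it. In tumours, B cells present antigen on MHC class II, secrete cytokines and antibody, and can either help or restrain T cells. Tregs are known to limit B cell responses. The Appl2 protein is an adaptor that sits on early endosomes through the GTPase Rab5.

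Total counts ran from 6245822 to 11605642 per library, and 18025 to 19764 genes had at least 1 count. Levels are given as CPM, counts of a gene over all counts of its library, scaled for composition and set to a common total. Mitochondrial genes took 0.619 to 0.854 % of counts. Among gene counts of 1 to 10, 71.2 to 75.4 % were even, and the cause was not tested. Low counts may therefore rest on fewer separate reads than they state. The markers of the labelled cell were present in every library. Ms4a1, the gene of the B cell surface protein CD20, stood at 303, 315 and 326 CPM in the libraries labelled KO and at 281, 254 and 279 CPM in those labelled WT. Pax5, the transcription factor that keeps B cell identity, stood at 1267, 1881 and 1801 CPM under the KO label and 1271, 1320 and 1184 CPM under the WT label. The Ms4a1 groups did not overlap, and those of Pax5 did. Summed over 15 B cell identity genes, the level was 5334 to 6069 CPM in KO libraries and 5185 to 5365 CPM in WT libraries, ranges that overlap.

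Appl2 itself, on the minus strand of chromosome 10 (GRCm39, 83435897 to 83484602), stood at 16.8, 17.0 and 11.8 CPM in the libraries labelled KO and at 39.4, 52.3 and 40.9 CPM in those labelled WT. The groups did not overlap, and the difference was -1.53 ± 0.16 on the log2 scale (standard error of the fit here and below; adjusted p = 5.83e-06, edgeR quasi-likelihood test). Its close relative Appl1, a Rab5-binding adaptor of the same kind, stood at 97.6, 98.4 and 93.1 CPM under the KO label and 105, 116 and 107 CPM under the WT label, a difference of -0.18 ± 0.08 that did not pass (adjusted p = 0.0841, edgeR), although the groups did not overlap. Under upper-quartile scaling it was -0.26 and passed (adjusted p = 0.0194, edgeR). Of the 15 tested genes on a list of Appl adaptors and Rab5 endosome genes, 2 rose and 7 fell, Appl2 included, where 21.3 % of all 13483 genes tested rose and 18.8 % fell. The Rab5 exchange factor Rabgef1 rose by 1.64 ± 0.09, with 126 to 152 CPM in KO libraries and 41.8 to 46.3 CPM in WT libraries. Rab5b, one of the Rab5 GTPases, fell by 0.92 ± 0.19. Among the 14 tested genes within 1 Mb of Appl2, 7 were called, and 66 of 146 within 5 Mb, which is 45.2 %, against 40.1 % of all genes tested. Gene counts do not show which exons of Appl2 the reads came from.

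Of 13483 genes tested between the labels, 5410 passed at an adjusted p under 0.05, which is 40.1 % of those tested. The 2871 that rose in KO libraries were 21.3 % and the 2539 that fell were 18.8 % of genes tested. Changes of at least 2-fold were found for 902 of the genes that rose and 998 of those that fell. The median log2 fold change over all genes tested was -0.03. Every count of list members in this comparison is to be read against these shares.

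**Figure D1:**
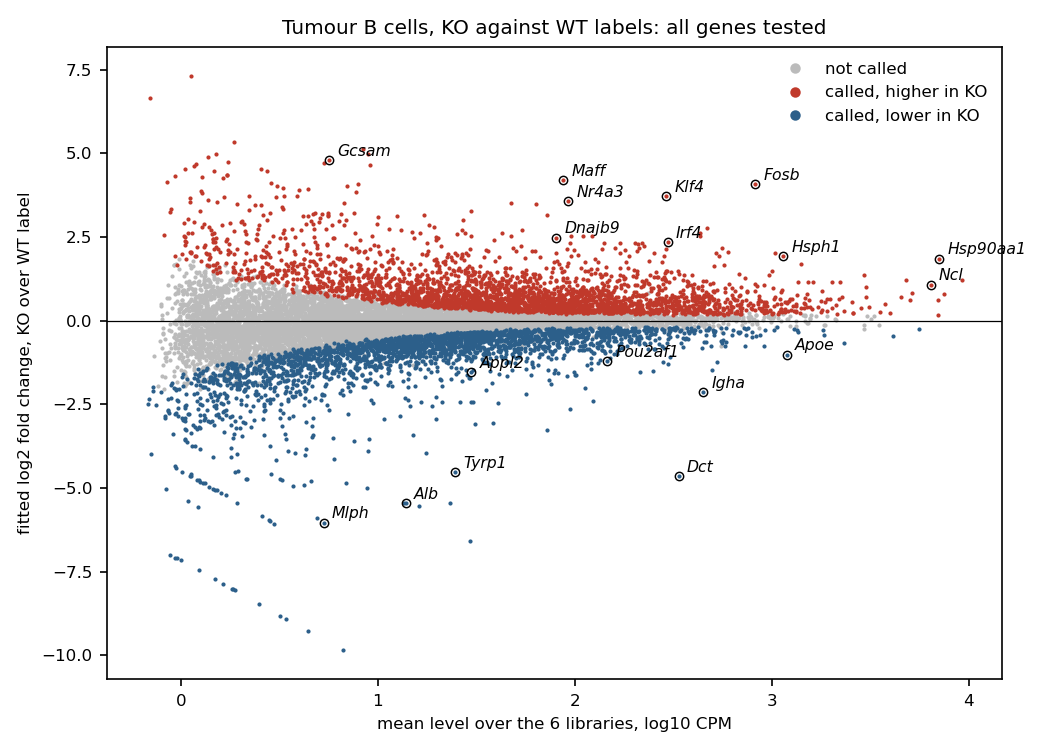
Each point is 1 of the 13483 genes tested, with its mean level over the 6 tumour B cell libraries on the x axis (log10 CPM) and the fitted log2 fold change of KO over WT labels on the y axis; red and blue points passed at an adjusted p under 0.05. Fosb, Klf4 and Maff lie high among abundant genes, and the melanocyte genes Dct and Tyrp1 lie far below 0. The diagonal rows at the bottom left are genes with no or almost no counts in 1 group, whose fitted fold depends on the fit's prior count.

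2 of the 6 libraries stood apart from the others of their group. They were KO replicate 1, with the most counts of the 6 (11605642), and WT replicate 2, with the fewest (6245822). The part of depth in this was not tested. Between KO replicates 2 and 3, 26 genes with at least 10 CPM were 2-fold or more apart, against 134 and 108 in the pairs with KO replicate 1. Between WT replicates 1 and 3 there were 14, against 59 and 51 in the pairs with WT replicate 2. In KO replicate 1, 69 genes were 2-fold above both other KO libraries and 4 were 2-fold below. Cebpb, a transcription factor of myeloid and inflammatory responses was among them with 21.3 CPM in KO replicate 1 and 2.29 and 1.33 CPM in the other KO libraries, against 23.2, 17.6 and 25.1 CPM in WT libraries. Otulin, which removes linear ubiquitin chains, had 452 CPM in KO replicate 1 and 90.4 and 88.7 CPM in the other KO libraries, against 238, 189 and 238 CPM in WT libraries. Cebpb in KO replicate 1 was thus at the level of the WT libraries, and Otulin above it, while both genes in the other KO libraries lay below all WT libraries. In WT replicate 2, 24 genes were 2-fold above both other WT libraries and 10 below. The 8 furthest above, Alb, Fga, F9, Rbp4, Hp, Cp, C3 and Gstm2, are known as genes of the liver, most of them for secreted plasma proteins. Fga, a fibrinogen chain, had 1.47, 0 and 0 CPM in KO libraries and 0.410, 152 and 22 CPM in WT libraries. Without KO replicate 1 and WT replicate 2 together, 5748 genes passed, of which 4759 were genes called in the same direction with all 6 libraries. Many counts of list members below are also given without both libraries. That fit keeps the closest pair of each group, picked from these same data. Its smaller spread favours calls, so its counts are not an independent check. Where they are not, the count can differ in that fit.

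Of the lists of B cell genes, the one with the highest median was the immediate early genes, transcription factors and regulators that are switched on within minutes of a stimulus without new protein synthesis. Of 34 tested, 28 rose and 1 fell, with a median log2 fold change of 1.37 against -0.03 over all genes (28 and 3 without both libraries, median 1.33). Fosb, a partner in the AP-1 transcription factor, stood at 1454, 1593 and 1636 CPM in KO libraries and 83.3, 100 and 92.1 CPM in WT libraries. All KO libraries thus lay more than an order of magnitude above all WT libraries, a rise of 4.09 ± 0.09 (adjusted p = 1.32e-12, edgeR). Klf4, a zinc finger factor known to restrain B cell division, stood at 492, 566 and 561 CPM under the KO label and 42.0, 38.2 and 41.6 CPM under the WT label, and rose by 3.73 ± 0.09. Maff, a small Maf factor without an activation domain, stood at 174, 160 and 165 CPM in KO libraries and 10.04, 8.06 and 8.61 CPM in WT libraries, and rose by 4.21 ± 0.11 (16 % of its exon bases are shared with an overlapping gene). The 3 NR4A orphan nuclear receptors, which follow antigen receptor signals and limit the response of chronically stimulated lymphocytes, rose together. Nr4a1 stood at 972, 881 and 905 CPM in KO libraries and 214, 193 and 206 CPM in WT libraries, and Nr4a3 at 157, 170 and 184 CPM in KO libraries and 16.7, 13.3 and 12.9 CPM in WT libraries. Nr4a2 averaged 86.8 ± 2.68 CPM in KO libraries and 7.69 ± 1.80 CPM in WT libraries (SD, n = 3 each). No KO library overlapped a WT library for any of these genes. Atf3, a stress-induced member of the ATF family, rose by 2.52 ± 0.09.

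Promoter windows are shown for 4 genes that rose in KO tumour B cells and whose window holds a motif of a factor class known for the group they belong to: Maff for immediate early genes, Hsph1 and Dnajb4 for heat shock genes and Nfkbia for NF-kB inhibitors. Each is 300 bases from 250 before to 50 after a transcription start in RefSeq, 5′ to 3′ along the gene, on GRCm38.p6, which is another build than that of the count table. Maff has 3 such windows, and Hsph1 and Dnajb4 have 2 each. For these genes the window with the most matches of the motif was taken. The windows are chr15:79347270-79347569 (plus strand) for Maff, chr5:149636266-149636565 (minus) for Hsph1, chr3:152193796-152194095 (minus) for Dnajb4 and chr12:55492598-55492897 (minus) for Nfkbia. Capitals mark the cyclic AMP response element TGACGTCA in Maff, the heat shock element core TTCNNGAA in Hsph1 and Dnajb4, and the NF-kB motif GGGNNNTTCC, here on the opposite strand, in Nfkbia.
Maff: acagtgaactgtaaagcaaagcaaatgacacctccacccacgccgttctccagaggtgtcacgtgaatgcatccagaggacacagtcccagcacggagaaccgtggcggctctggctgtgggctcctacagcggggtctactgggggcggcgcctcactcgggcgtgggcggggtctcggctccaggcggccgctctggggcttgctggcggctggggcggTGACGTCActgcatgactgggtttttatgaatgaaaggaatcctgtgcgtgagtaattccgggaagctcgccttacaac
Hsph1: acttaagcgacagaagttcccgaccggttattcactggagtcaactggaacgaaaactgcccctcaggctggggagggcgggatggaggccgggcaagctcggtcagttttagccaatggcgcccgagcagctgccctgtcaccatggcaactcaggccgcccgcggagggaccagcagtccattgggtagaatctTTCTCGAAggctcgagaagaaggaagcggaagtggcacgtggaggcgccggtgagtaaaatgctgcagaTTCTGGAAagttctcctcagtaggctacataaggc
Dnajb4: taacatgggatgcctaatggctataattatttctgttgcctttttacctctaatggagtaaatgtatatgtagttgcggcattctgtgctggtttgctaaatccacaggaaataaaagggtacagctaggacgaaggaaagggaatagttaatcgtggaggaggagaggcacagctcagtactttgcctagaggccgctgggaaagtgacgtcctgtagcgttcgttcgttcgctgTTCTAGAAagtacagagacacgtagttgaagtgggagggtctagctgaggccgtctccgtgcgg
Nfkbia: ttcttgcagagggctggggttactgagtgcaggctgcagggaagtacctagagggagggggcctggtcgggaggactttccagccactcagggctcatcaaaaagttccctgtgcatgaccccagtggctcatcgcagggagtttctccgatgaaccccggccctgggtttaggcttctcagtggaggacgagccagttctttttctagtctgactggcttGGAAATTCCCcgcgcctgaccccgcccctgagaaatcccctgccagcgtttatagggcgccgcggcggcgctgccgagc

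Both strands of 32851 RefSeq windows were searched, in which matches of different motifs overlapped in 55 windows. The heat shock core TTCNNGAA was in 8 of 24 windows of heat shock genes (33.3 %) and in 8.52 % of all windows. GGGNNNTTCC was in 13 of 28 windows of NF-kB subunits and inhibitors (46.4 %) and in 5.56 % of all windows. TGACGTCA was in 4 of 37 windows of immediate early genes (10.8 %), those of Btg2, Dusp1, Maff and Ppp1r15a, and in 1.79 % of all windows, and the AP-1 motif TGANTCA was in 2 of the 37 (5.41 %) and in 7.81 % of all. Windows were found for 28 of 35 immediate early genes, 17 of 23 heat shock genes and 19 of 23 NF-kB genes. The matches describe these letters and are not measured binding.

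NF-kB inhibitors and subunits formed the next group, the inhibitors being genes that NF-kB itself switches on. Of 23 tested, 14 rose and 1 fell (15 and 1 without both libraries, 11 and 3 under upper-quartile scaling), with a median of 0.36. Nfkbia, which codes for the inhibitor that holds NF-kB in the cytoplasm, stood at 348, 326 and 325 CPM in KO libraries and 80.9, 76.2 and 78.9 CPM in WT libraries. Tnfaip3, the ubiquitin-editing enzyme A20 that ends NF-kB signals, stood at 735, 712 and 753 CPM in KO libraries and 132, 119 and 131 CPM in WT libraries. For both genes every KO library lay above every WT library. Rel, the NF-kB subunit that drives B cell division, averaged 968 ± 48.5 CPM in KO libraries and 235 ± 12.9 CPM in WT libraries (SD, n = 3 each), a rise of 2.04 ± 0.07. Of 14 tested phosphatases and Sprouty proteins that damp MAP kinase signals, 7 rose and none fell, with Dusp4 up by 2.32 ± 0.09 and Dusp16 by 2.09 ± 0.10 (7 and 0 without both libraries). Spry2, counted among the 7, lost its call in 4 of the fits without single libraries or without both.

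**Figure D2:**
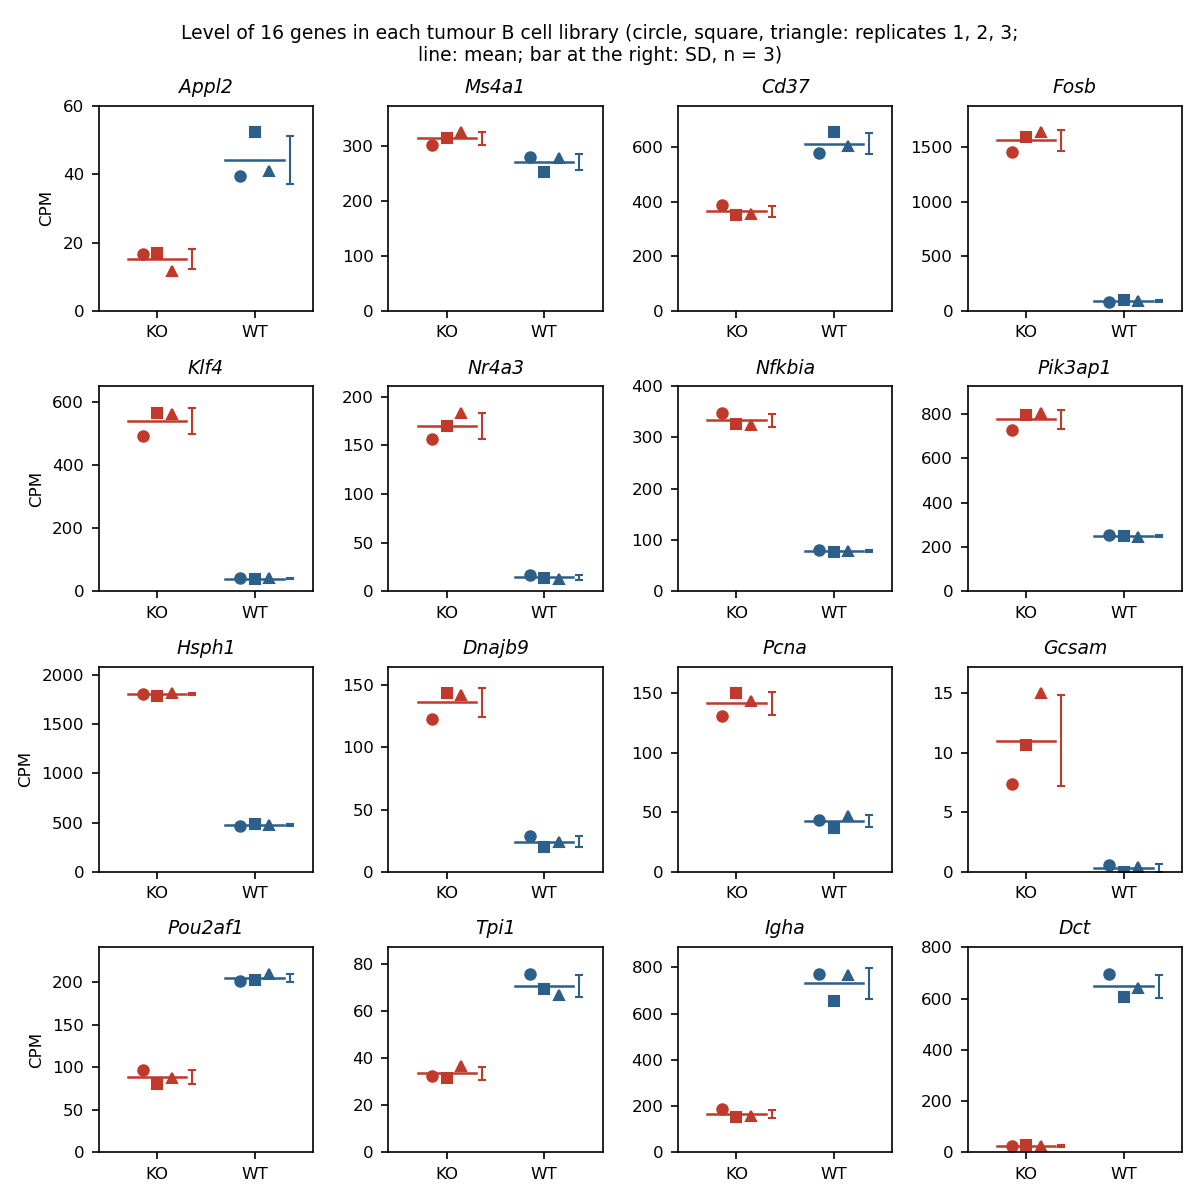
Each panel shows 1 gene, with the level in CPM on a linear y axis from 0, the 3 KO libraries in red at the left and the 3 WT libraries in blue at the right; the line is the group mean and the bar the SD. Fosb lies at 1454 to 1636 CPM in KO and 83.3 to 100 CPM in WT libraries, and Ms4a1 differs little, at 303 to 326 CPM in KO and 254 to 281 CPM in WT libraries.

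Signalling molecules of the B cell receptor and its coreceptors changed in both directions. Of 28 tested, 14 rose and 5 fell, and under upper-quartile scaling 11 rose and 9 fell. Pik3ap1, the adaptor BCAP that links receptor signals to PI3 kinase, stood at 725, 794 and 804 CPM in KO libraries and 254, 251 and 245 CPM in WT libraries, a rise of 1.63 ± 0.07. Bcl10 and Malt1, which carry the receptor's signal to NF-kB, rose by 0.997 ± 0.11 and 0.66 ± 0.07. Siglecg, an inhibitory receptor for sialic acid, fell by 0.67 ± 0.08, and Cd37, a tetraspanin of the B cell surface, by 0.75 ± 0.07. Of 17 inhibitory receptors tested, 5 rose and 6 fell (5 and 7 without both libraries, 5 and 9 under upper-quartile scaling). Pirb, which binds MHC class I, averaged 22.9 ± 1.42 CPM in KO libraries and 46.4 ± 5.38 CPM in WT libraries (SD, n = 3 each). Cd274, which codes for PD-L1, the ligand of the T cell checkpoint PD-1, averaged 191 ± 7.83 CPM in KO libraries and 134 ± 3.72 CPM in WT libraries. The inhibitory Fc receptor Fcgr2b fell by 0.47 ± 0.08. The groups of these 3 genes did not overlap.

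Transcription factors of the B lineage also moved both ways, with 15 up and 6 down of 31 tested. Irf4, which is induced by receptor signals in proportion to their strength, rose by 2.35 ± 0.08. Mef2c, a factor needed for B cell division after receptor ligation, stood at 1639, 1994 and 2000 CPM in KO libraries and 862, 869 and 825 CPM in WT libraries. Tbx21, the factor T-bet of age-associated and some antiviral B cells and also of cytotoxic T cells, stood at 7.44, 6.86 and 8.09 CPM in KO libraries and 0.820, 1.17 and 0.623 CPM in WT libraries. B cells share this gene with T and NK cells, and markers of T and NK cells were higher in the same libraries, as given further below. Pou2af1, the B cell coactivator OCA-B, fell by 1.21 ± 0.08, with 97.4, 80.4 and 87.9 CPM in KO libraries and 201, 202 and 210 CPM in WT libraries. Tcf3, which codes for the E proteins E12 and E47, fell by 0.65 ± 0.08.

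Germinal centre genes rose in 10 of 15 tested and fell in none, with a median of 1.16 (9 and 1 without both libraries, median 1.18). Gcsam, a germinal centre signalling adaptor, stood at 7.35, 10.7 and 15 CPM in KO libraries and 0.615, 0 and 0.415 CPM in WT libraries, so that few reads lie behind the WT level. Its log2 fold change of 4.81 ran from 4.36 to 5.42 with 1 library left out. Nuggc, a nuclear GTPase of germinal centre cells, stood at 54.5, 56.5 and 61.3 CPM in KO libraries and 15.5, 10.7 and 13.4 CPM in WT libraries. Bcl6, the transcription factor that directs the germinal centre programme, averaged 57.0 ± 2.85 CPM in KO libraries and 25.4 ± 1.16 CPM in WT libraries (SD, n = 3 each). Mybl1, a Myb factor of dividing germinal centre cells, rose by 2.52 ± 0.25. Of 19 tested genes of class switching and hypermutation, 6 rose and 4 fell, with the mismatch repair gene Msh6 up by 1.18 ± 0.08.

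Positioning and adhesion genes changed in KO tumour B cells as well. Of 20 chemokines and chemokine receptors tested, 10 rose and 3 fell (10 and 3 without both libraries). Cxcr5, the receptor that brings B cells into follicles, stood at 186, 181 and 197 CPM in KO libraries and 95.1, 104 and 102 CPM in WT libraries. Ccr7, which draws activated cells to the T cell zone, rose by 0.89 ± 0.08, and Gpr183, a receptor for oxysterols that guides activated B cells, by 1.19 ± 0.09. Cxcr4 fell by 0.71 ± 0.09. Cd69, an early activation protein that holds cells in tissue, rose by 1.77 ± 0.08, and Icam1, an adhesion partner in contacts with T cells, by 1.41 ± 0.08. For each of these genes the KO and WT libraries did not overlap.

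Transcripts for antigen presentation by MHC class II rose in small steps. Of 16 tested, 10 rose and none fell (median 0.33; 10 and 1 without both libraries). H2-Ab1, the beta chain of I-A, stood at 8313, 8409 and 8575 CPM in KO libraries and 5971, 4985 and 5588 CPM in WT libraries. Cd74, the invariant chain, rose by 0.48 ± 0.06. H2 genes are alike in sequence, and how reads shared between them were counted is not given in the sources used here. Cd86, a ligand that costimulates T cells, rose by 0.63 ± 0.11. Tnfrsf13c, the receptor for the survival factor BAFF, stood at 269, 427 and 422 CPM in KO libraries and 136, 162 and 155 CPM in WT libraries, with KO replicate 1 the lowest of its group and still above all WT libraries. Il21r, the receptor for the T cell cytokine IL-21, rose by 1.09 ± 0.09. Il9r, a receptor of memory B cells, fell by 1.73 ± 0.19, with 10.4, 9.91 and 12.6 CPM in KO libraries and 41.4, 26.5 and 40.8 CPM in WT libraries.

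Heat shock proteins and their cochaperones rose in KO tumour B cells, with 18 of 22 tested up and 1 down (median 0.98; 18 and 1 without both libraries). Their summed level was 50157 to 53555 CPM in KO libraries and 21920 to 22813 CPM in WT libraries, with no overlap. Hsp90aa1, the inducible form of HSP90, averaged 11098 ± 346 CPM in KO libraries and 3067 ± 191 CPM in WT libraries (SD, n = 3 each). Hsph1, which releases ADP from HSP70, stood at 1801, 1789 and 1811 CPM in KO libraries and 464, 486 and 475 CPM in WT libraries. Dnajb4 and Dnaja1, which hand substrates to HSP70, rose by 2.32 ± 0.09 and 2.03 ± 0.08. The mitochondrial chaperonin Hspd1 rose by 1.67 ± 0.07. The unfolded protein response of the endoplasmic reticulum meets a load of secretory protein. Of 24 genes on a list of this response and of secretion, 13 rose and 2 fell (13 and 1 without both libraries). Hspa5, which codes for the chaperone BiP of this response, stood at 1519, 1457 and 1442 CPM in KO libraries and 564, 503 and 529 CPM in WT libraries. Dnajb9, a target of the sensor IRE1, stood at 123, 144 and 142 CPM in KO libraries and 28.6, 19.6 and 24.2 CPM in WT libraries. Of 21 genes of the integrated stress response, 10 rose and 5 fell. Ddit3, which codes for the factor CHOP, rose by 2.31 ± 0.09 and Atf4 by 1.38 ± 0.09, and Pck2, the mitochondrial form of an enzyme of gluconeogenesis, fell by 1.05 ± 0.13.

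**Figure D3:**
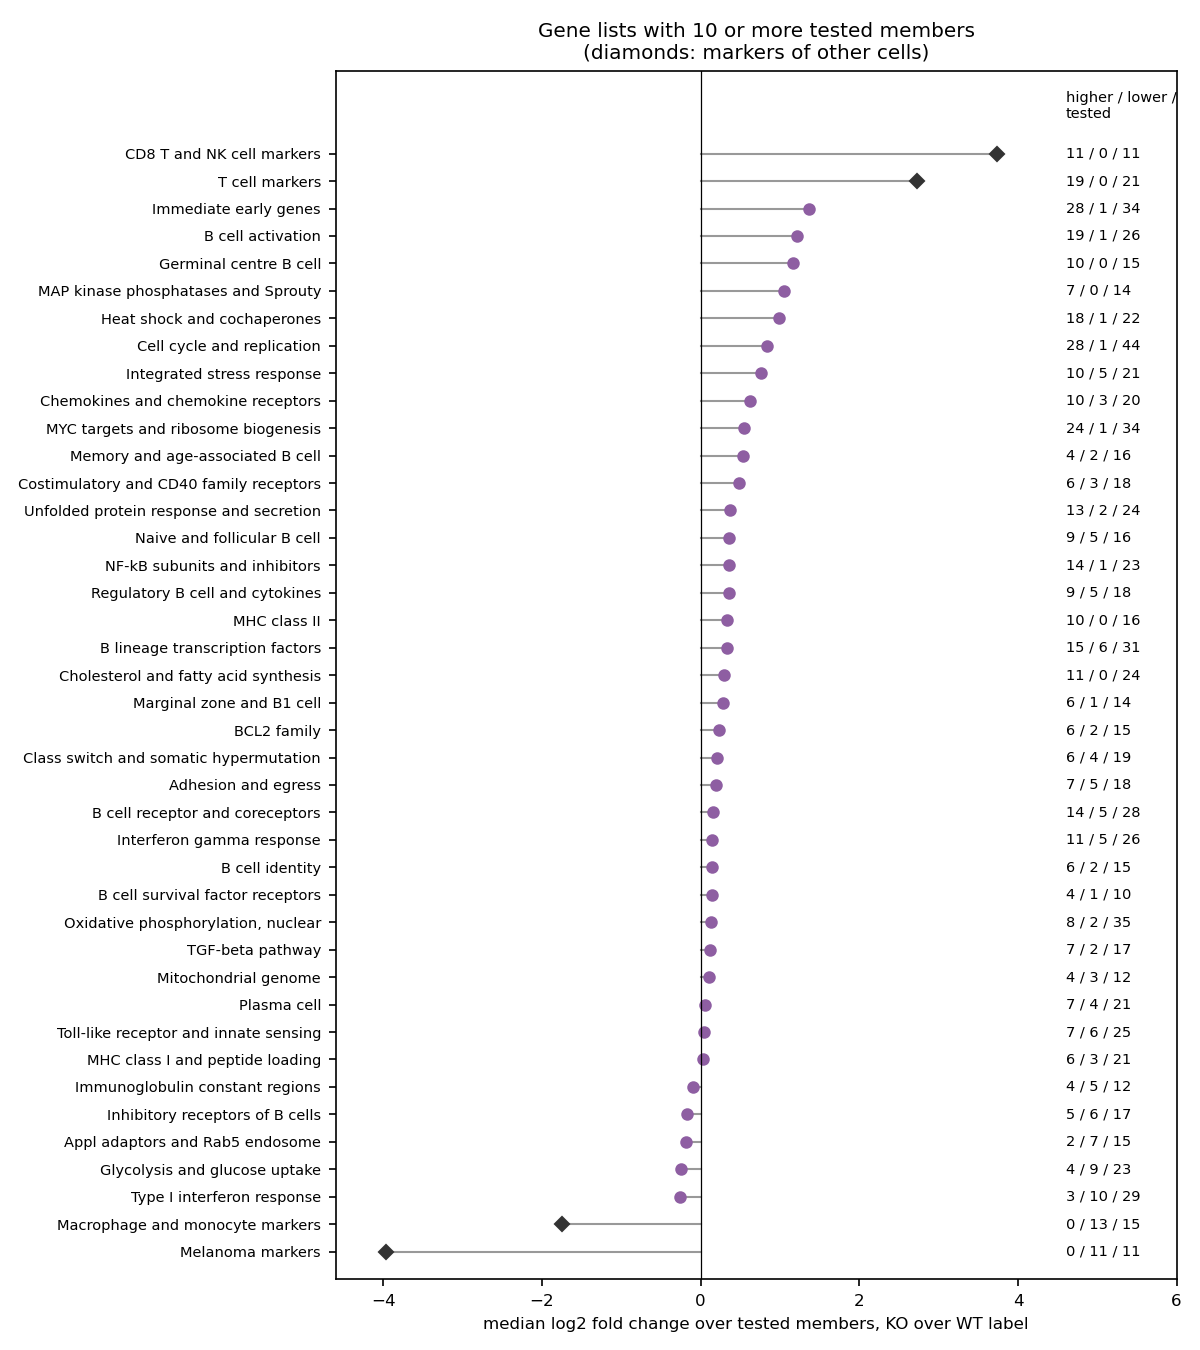
Each row is a gene list with 10 or more tested members, at its median log2 fold change of KO over WT labels on the x axis, and the numbers at the right give members higher, lower and tested; diamonds are markers of cells other than B cells. The medians of B cell lists run from -0.26 for type I interferon genes to 1.37 for immediate early genes, and the lists of other cells lie beyond both ends.

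Growth and division genes rose. Of 44 cell cycle and replication genes tested, 28 rose and 1 fell, with a median of 0.84 (24 and 3 without both libraries, median 0.78). Pcna, the sliding clamp of DNA replication, of whose exon bases 20.8 % are shared with an overlapping gene, stood at 130, 150 and 144 CPM in KO libraries and 43.9, 37.2 and 47.3 CPM in WT libraries. Top2a, the topoisomerase of dividing cells, rose by 1.74 ± 0.12, and Cdt1, which licenses replication origins, by 1.44 ± 0.11. T cells divide too, and the part of the T cell transcripts described below in these rises was not tested. Among 34 targets of MYC and genes of ribosome biogenesis, 24 rose and 1 fell (median 0.55; 22 and 2 without both libraries). Ncl, the nucleolar protein nucleolin, stood at 7765, 9195 and 9144 CPM in KO libraries and 4305, 4064 and 3993 CPM in WT libraries, and the ribosome assembly factor Nop58 rose by 1.19 ± 0.07. Genes of cholesterol and fatty acid synthesis rose in 11 of 24 with none down (12 and 1 without both libraries). Insig1, the sterol sensor that restrains cholesterol synthesis, rose by 1.89 ± 0.21.

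Glycolysis genes went the other way, with 4 of 23 up and 9 down (median -0.25, and 4 and 8 without both libraries). Tpi1, triosephosphate isomerase, stood at 32.2, 31.7 and 36.8 CPM in KO libraries and 75.8, 69.3 and 66.9 CPM in WT libraries, and the hypoxia gene Bnip3 averaged 8.59 ± 0.537 CPM in KO libraries and 22.5 ± 3.61 CPM in WT libraries (SD, n = 3 each). The glucose transporter Slc2a1 rose by 1.06 ± 0.15. Tumour cells are glycolytic, and melanoma transcripts were lower in the KO libraries, as given below; their part in the glycolytic values was not tested. Of 35 nuclear genes of oxidative phosphorylation, 8 rose and 2 fell (8 and 3 without both libraries, 6 and 2 under upper-quartile scaling). The share that rose was near the 21.3 % of all genes tested. Of 29 type I interferon genes, 3 rose and 10 fell (median -0.26; 4 and 8 without both libraries). The DNA sensor Ifi204 averaged 13.3 ± 2.08 CPM in KO libraries and 31.9 ± 3.48 CPM in WT libraries. The interferon gamma list had 11 up and 5 down of 26. Irf1, an early factor of that response, of whose exon bases 20 % are shared with an overlapping gene, stood at 281, 269 and 269 CPM in KO libraries and 68.0, 64.0 and 70.2 CPM in WT libraries, while the guanylate-binding proteins split, Gbp6 up by 1.16 ± 0.14 and Gbp5 down by 0.89 ± 0.10.

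Genes of the BCL2 family, which sets the threshold of cell death, changed on both sides of that balance. Of 15 tested, 6 rose and 2 fell. Pmaip1, which codes for the pro-death protein NOXA, stood at 337, 334 and 344 CPM in KO libraries and 66.9, 63.3 and 72.2 CPM in WT libraries. Its target Mcl1, a survival protein, rose by 0.84 ± 0.09, and the survival gene Bcl2 fell by 0.57 ± 0.09. Among genes of TGF-beta signalling, 7 of 17 rose and 2 fell (5 and 3 under upper-quartile scaling). Repressors of the pathway were among those that rose. Skil, which codes for the SMAD repressor SnoN, stood at 821, 845 and 847 CPM in KO libraries and 196, 214 and 205 CPM in WT libraries, and the SMAD corepressor Tgif1 rose by 1.496 ± 0.08. Tnf, the inflammatory cytokine, averaged 23 ± 2.69 CPM in KO libraries and 7.64 ± 1.23 CPM in WT libraries. Il1b, a cytokine mainly of myeloid cells, stood at 42.6, 46.9 and 52.9 CPM in KO libraries and 108, 108 and 97.0 CPM in WT libraries. Il10, the cytokine by which regulatory B cells are defined, was too low to be tested, with 1.19, 0.508 and 2.17 CPM in KO libraries and 0.102, 0 and 0.415 CPM in WT libraries.

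Antibody genes shifted in class and in V segment. Among counts of heavy chain constant regions, Igha, the constant region of IgA, took 3.45 to 4.61 % in KO libraries and 18.2 to 19.8 % in WT libraries. Ighg2c took 29.2 to 31.2 % under the KO label and 20.5 to 21.2 % under the WT label, and Ighm 37.9 to 43.2 % under the KO label and 34.5 to 36.9 % under the WT label. Ighd took 6.28 to 6.97 % under the KO label and 8.58 to 9.75 % under the WT label. These are shares of 1 total, so a lower Igha share raises the others. In CPM, Ighg2c rose by 0.70 ± 0.07. Jchain, the antibody joining chain, averaged 313 ± 37.5 CPM in KO libraries and 743 ± 112 CPM in WT libraries. The share of all counts on heavy chain V segments was 0.211 ± 0.00329 % in KO libraries and 0.352 ± 0.0269 % in WT libraries (SD, n = 3 each). Of 100 heavy chain V segments tested, 19 rose and 53 fell, and of 82 kappa V segments 7 rose and 32 fell (18 and 55, and 7 and 36, without both libraries). Ighv1-58 averaged 13.2 ± 2.69 CPM in KO libraries and 0.751 ± 0.428 CPM in WT libraries, and Ighv11-2, a segment known from B1 cells, 93.3 ± 7.40 CPM in KO libraries and 14.0 ± 1.56 CPM in WT libraries. Igkv1-110 averaged 26.1 ± 6.36 CPM in KO libraries and 163 ± 11.7 CPM in WT libraries. The effective number of heavy chain V segments, the exponential of their Shannon entropy, was 56.1 ± 0.913 in KO libraries and 56.1 ± 0.584 in WT libraries, while that of kappa segments was 46.2 ± 1.12 in KO libraries and 40.4 ± 0.126 in WT libraries. V segments share long stretches of sequence, so the count of a single segment is uncertain, and the segments named are among those that changed most, chosen after their values were seen. The B1 and marginal zone list had 6 up and 1 down of 14, with Spn, the B1 marker CD43 that T cells also carry, up by 0.75 ± 0.10. Its largest rise, 2.73 ± 0.59, was that of Cd5, which averaged 141 CPM in KO and 119 CPM in WT tumour Treg libraries. Bhlhe41 and Cr2, counted among the 6, each lost their call in at least 1 fit with 1 library left out. The part of T cell transcripts in this list was not tested.

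Transcripts of other cells differed between the labels by more than most B cell genes. In bulk libraries, fewer cells of a type and less RNA per cell cannot be told apart. Of 21 T cell markers, 19 rose and none fell (20 and 0 without both libraries), and their summed level was 612 to 663 CPM in KO libraries and 289 to 294 CPM in WT libraries. Cd3g, a chain of the T cell receptor complex, stood at 14.6, 15.5 and 10.9 CPM in KO libraries and 1.43, 1.76 and 1.25 CPM in WT libraries. Thy1 stood at 55.3, 58.4 and 47.2 CPM in KO libraries and 7.27, 3.81 and 5.29 CPM in WT libraries. Cd2, which mouse B cells also carry, made up much of the sum, with 333 ± 11.8 CPM in KO libraries and 192 ± 4.37 CPM in WT libraries (SD, n = 3 each). Markers of CD8 T and NK cells rose in 11 of 11 tested (10 without both libraries), with a median of 3.73, or 3.61 when Gzmk, which had 0 reads in WT libraries, is set to its lower bound. Their summed level was 70.9 to 79.0 CPM in KO libraries and 6.74 to 9.24 CPM in WT libraries. Cd8b1, a chain of the CD8 coreceptor, had the largest rise among genes eligible for naming, with 19.1, 17.3 and 15.7 CPM in KO libraries and 0.410, 0.586 and 0.623 CPM in WT libraries. The granzyme gene Gzmb averaged 6.20 ± 0.827 CPM in KO libraries and 0.441 ± 0.162 CPM in WT libraries. Of 8 Treg markers tested, 2 rose, Ctla4 by 1.12 ± 0.14 and Tigit by 0.98 ± 0.24. Foxp3, named because it drives the Cre allele, stood at 7.62, 6.35 and 10.1 CPM in KO libraries and 11.3, 12 and 7.06 CPM in WT libraries, groups that overlap (adjusted p = 0.346).

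Markers of macrophages, melanoma cells, stroma and red cells moved the other way. Macrophage and monocyte markers fell in 13 of 15 tested with none up, with all 6 libraries and without both, and summed to 866 to 891 CPM in KO libraries and 1441, 2585 and 1599 CPM in WT libraries, highest in WT replicate 2. Lyz2, the lysozyme of myeloid cells, stood at 19.7, 19.3 and 21.7 CPM in KO libraries and 100, 91.7 and 87.2 CPM in WT libraries. Ms4a7, too low to be tested, had 0 reads in all KO libraries and 1.23, 0.586 and 1.66 CPM in WT libraries. Melanoma markers fell in 11 of 11 tested (10 without both libraries), with a summed level of 41.1 to 45.6 CPM in KO libraries and 762 to 862 CPM in WT libraries. Dct, an enzyme of melanin synthesis, stood at 24.4, 29.2 and 23.9 CPM in KO libraries and 697, 606 and 641 CPM in WT libraries, a fall of 4.65 ± 0.10 (adjusted p = 1.32e-12, edgeR). The pigment genes Tyrp1 and Tyr fell by 4.52 ± 0.17 and 4.14 ± 0.34, and the melanosome transporter Mlph averaged 0.122 ± 0.212 CPM in KO libraries and 10.5 ± 0.943 CPM in WT libraries. B16 cells are the tumour the B cells were taken from, and melanoma transcripts were thus lower but not at 0 in KO libraries. Stromal and endothelial markers fell in 6 of 7, also without both libraries. Collagen Col3a1 averaged 1.14 ± 0.561 CPM in KO libraries and 16.7 ± 1.25 CPM in WT libraries. If each count is a separate read, Col1a1, with 0 reads in all KO libraries, was at least 61.9-fold lower. That bound takes a floor of 3 counts over the KO group. Erythroid and platelet markers fell in 6 of 8, also without both libraries, with a summed level of 205 to 215 CPM in KO libraries and 490 to 663 CPM in WT libraries. Dendritic cell markers changed in none of the 5 tested, and 1 of 2 neutrophil and mast cell markers rose. The part of these other cells' transcripts in the results on B cell genes was not tested.

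**Figure D4:**
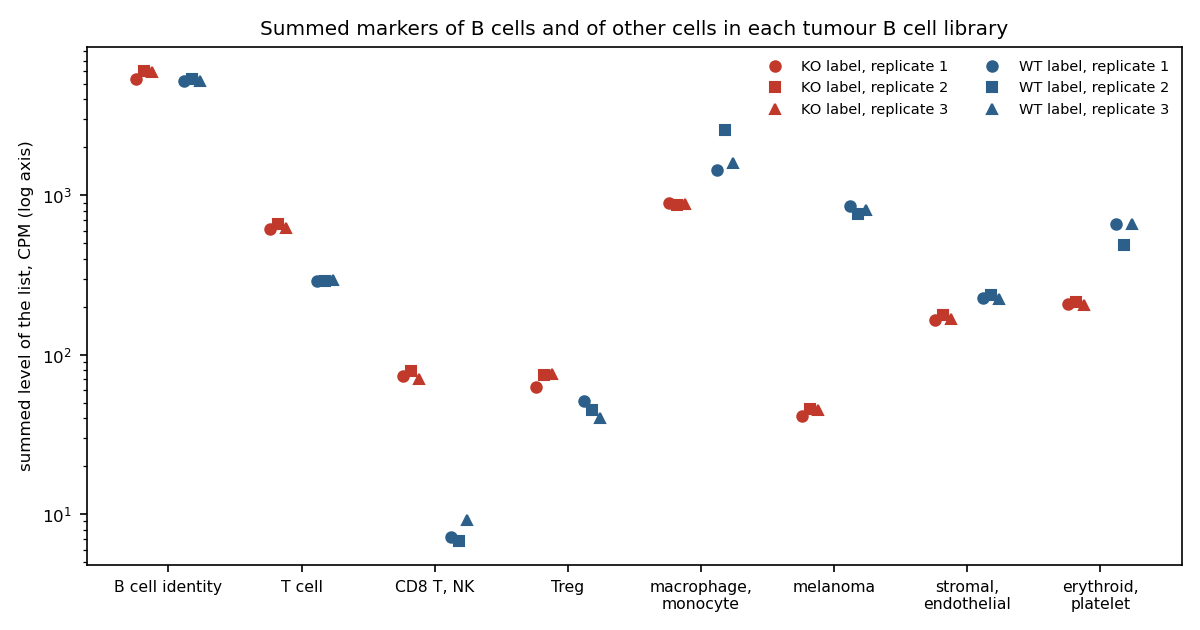
Summed level in CPM of each marker list (log y axis) in each of the 6 tumour B cell libraries, KO in red at the left and WT in blue at the right of each list, with symbols for the replicates. B cell identity sums lie close together at 5185 to 6069 CPM, while T, CD8 T and NK cell sums are higher and macrophage, melanoma and erythroid sums lower in the KO libraries; WT replicate 2 is the highest for macrophage markers.

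Further genes named for the size of their change were mixed, with Cd3d of the T cell marker list among them. Epha2, an ephrin receptor, stood at 17.8, 18.3 and 16.5 CPM in KO libraries and 0.820, 0.586 and 0.623 CPM in WT libraries. Tamalin, a scaffold protein of receptor trafficking, stood at 125, 111 and 115 CPM in KO libraries and 9.53, 10.3 and 11.5 CPM in WT libraries. Rora, a nuclear receptor of innate and T lymphocytes, rose by 3.85 ± 0.30, Armcx4 by 3.52 ± 0.29 and Rgcc, a cell cycle regulator, by 4.10 ± 0.49. Rgcc ran from 3.59 to 5.86 with 1 library left out, and Cd3d, another chain of the T cell receptor complex, from 4.09 to 9.48 around 4.73. Some of the genes with the largest falls stood far higher in WT replicate 2 than in the other WT libraries. Alb, serum albumin, stood at 0.735, 0.508 and 0.483 CPM in KO libraries and 1.84, 70.3 and 9.34 CPM in WT libraries, and Hp, haptoglobin, at 1.10, 0.254 and 0.483 CPM in KO libraries and 2.36, 77.7 and 15.6 CPM in WT libraries. Their log2 fold changes of -5.45 and -5.53 became -3.23 and -3.76 without WT replicate 2, with adjusted p of 0.00217 and 0.0015 (edgeR). Gsta1 and Cald1 went likewise to -4.07 and -2.38 without it, against -5.01 and -3.54 with it. If each count is a separate read, Gstm2, with 0 reads in all KO libraries, was at least 121-fold lower. Without WT replicate 2, which held 31.9 CPM against 2.05 and 6.12 CPM in the other WT libraries, Gstm2 was at least 36.8-fold lower. Sparcl1 and Aebp1, matrix-related genes, fell by 5.45 ± 0.30 and 4.84 ± 0.37 with like values in all 3 WT libraries.

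Lymph node B cells of the same genotypes, at 3 libraries a group, gave the first test of where tumour B cells differed. The change between labels differed for 3086 of 14737 genes (20.9 %, edgeR interaction test over 12 libraries), being more positive in tumour B cells for 1826 (12.4 %) and more negative for 1260 (8.55 %). Under upper-quartile scaling these were 1580 and 1533. Within the lymph node, 13.1 % of the same genes passed between the labels, 6.89 % higher and 6.24 % lower in KO libraries. Of 44 cell cycle genes, 24 had a more positive change in the tumour and 1 a more negative one, and in the lymph node 5 rose and 3 fell. Mki67, the proliferation antigen, had 590 ± 21.5 CPM in KO and 622 ± 26.3 CPM in WT lymph node libraries (SD, n = 3 each), and its difference between tissues was 1.55 ± 0.11. Ribosome biogenesis had 21 of 34 more positive in the tumour and none more negative, the unfolded protein response 15 of 24 and none, heat shock 15 of 22 and 2, and germinal centre genes 10 of 15 and 1. Gcsam stood at 26.0 ± 2.88 CPM in KO and 23.5 ± 0.514 CPM in WT lymph node libraries, levels above those of either tumour group. Hspd1 had a lymph node change of -0.04 that did not pass and a tumour change of 1.67, a difference of 1.70 ± 0.08 (adjusted p = 1.65e-12).

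Immediate early genes rose in both tissues, in 30 of 34 in the lymph node, where 6.89 % of all genes rose, with a median of 1.22, and the change was more positive in the tumour for 15 and more negative for 9. Fosb had 346 ± 7.42 CPM in KO and 53.8 ± 4.93 CPM in WT lymph node libraries, a rise of 2.69 there, and differed by 1.39 ± 0.10 between tissues. Maff, at 14.5 ± 1.98 CPM in KO and 6.25 ± 2.07 CPM in WT lymph node libraries, differed by 2.995 ± 0.23. NF-kB subunits and inhibitors rose in 10 of 23 in the lymph node and fell in 1. Their change was more positive in the tumour for 10 and more negative for 2. Igha, which fell in the tumour, rose by 2.12 in the lymph node, with 34.6 ± 4.07 CPM in KO and 7.97 ± 0.946 CPM in WT libraries. T cell markers too went in opposite directions, with 19 of 21 more positive in the tumour and 11 of 21 lower in KO lymph node libraries. Thy1 stood at 3.79 ± 0.532 CPM in KO and 16 ± 1.06 CPM in WT lymph node libraries. Appl2 fell by 1.09 in the lymph node, and the difference from the tumour, -0.45 ± 0.21, did not pass (adjusted p = 0.14).

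**Figure D5:**
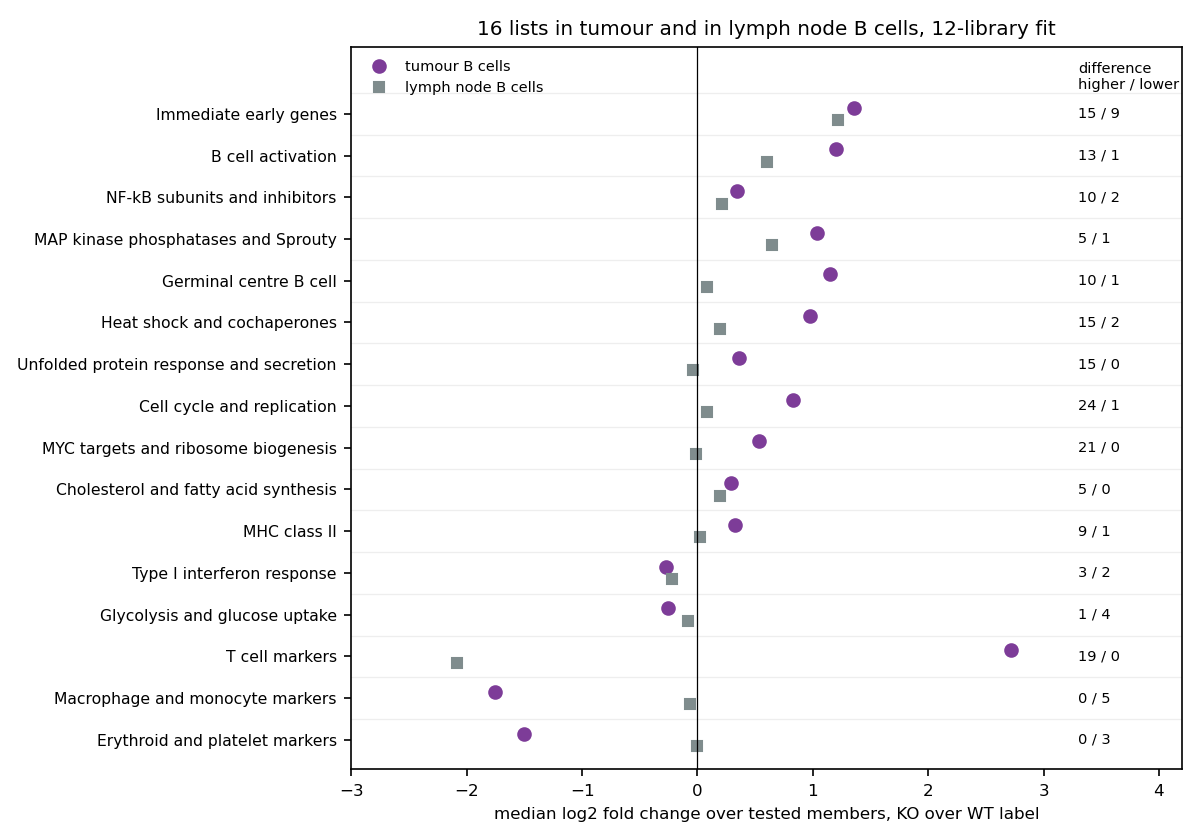
Median log2 fold change of KO over WT labels over the tested members of 16 lists, in tumour B cells (circles) and lymph node B cells (squares), from 1 fit over 12 libraries; the numbers at the right give members whose change was higher and lower in tumour than in lymph node B cells. Immediate early genes lie above 1 in both tissues, whereas cell cycle, germinal centre and heat shock lists lie at 0.08, 0.08 and 0.20 in the lymph node.

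Against tumour Tregs, in which Appl2 is the intended target, the change differed for 3686 of 15553 genes (23.7 %), more positive in B cells for 1880 (12.1 %) and more negative for 1806 (11.6 %). Without both libraries that stand apart these were 2168 and 2302. Within tumour Tregs, 44.0 % of the same genes passed between the labels, 22.8 % higher and 21.3 % lower in KO libraries. The 10 genes with the largest differences each had 0 reads in a whole group, so that no fold is given for them: Gm12167, Chst2, Klrg1, Sv2c and Trav6n-7 had none in WT tumour B cells, and 5 heavy chain V segments none in WT tumour Tregs. The cell cycle list was more positive in B cells for 36 of 44 genes and more negative for none, and in tumour Tregs 4 rose and 28 fell. Mki67 fell by 1.82 in tumour Tregs, a difference of 3.29 ± 0.11. Fosb and Klf4 rose in tumour Tregs by 4.05 and 3.92, and their differences from B cells, 0.02 ± 0.10 and -0.21 ± 0.13, did not pass (adjusted p of 0.948 and 0.25). In tumour Tregs too, immediate early genes rose in 30 of 34, NF-kB subunits and inhibitors in 16 of 23 and heat shock genes in 17 of 22. In these lists 1, 2 and 1 genes fell there. The change was more positive in B cells for 8, 6 and 12 genes of these lists and more negative for 11, 6 and 3. Tnfaip3 differed by 1.75 ± 0.08 and Hspd1 by 1.49 ± 0.08, both more positive in B cells. B cell identity genes rose in 13 of 15 in the Treg libraries labelled KO, so that differences in B cell genes between both cell types also carry those values. Appl2 fell by 1.12 ± 0.13 in tumour Tregs, with 24.5 ± 3.18 CPM in KO and 53.3 ± 4.13 CPM in WT libraries (SD). In tumour B cells, which are not the intended target, it fell by 1.53 in the fit over 6 libraries. The difference for Appl2 between the cell types, -0.43 ± 0.20, did not pass (adjusted p = 0.133, edgeR).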

How the data were processed

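Bulk RNA from sorted B cells and Tregs was sequenced with a stranded mRNA kit, per the labels' protocols. The authors deposited raw read counts for 56791 genes in 24 libraries, with GRCm39 coordinates. The submitters' processing notes name fastp 0.23.4, STAR 2.5.3a, featureCounts and the builds GRCm39 and GRCh38. No source used here gives the strand setting or how shared reads were treated, so that overlapping or near-identical genes, such as immunoglobulin, H2 and Gbp genes, cannot be told apart with certainty.

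From the deposited counts, genes were filtered with filterByExpr, scaled by TMM and tested between the 3 libraries labelled KO and the 3 labelled WT with edgeR 4.0.16 (quasi-likelihood test, R 4.3.3, limma 3.58.1), with Benjamini-Hochberg adjustment over all genes tested and a threshold of 0.05. Differences between tissues and cell types are interaction terms over 12 libraries. DESeq2 1.42.0 served as an alternative. The scripts were tested on simulated counts. Fold floors are 3 counts over a group, which takes each count as a separate read. With 3 libraries against 3, an exact permutation test of 1 value could not go below 0.10.

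Named genes are Appl2, Appl1, Ms4a1 and Pax5, the 15 largest changes in each direction, the 6 smallest p-values of each list, the 5 largest differences in each direction and the 8 genes furthest from the rest in each direction in both libraries that stand apart, beside a few said to be chosen otherwise or named for having 0 reads; some items are not reported here. The largest changes were taken from called genes that averaged 5 CPM or more over the 6 libraries, had groups that do not overlap, and kept their call without each library in turn and without both, leaving out unannotated models and V, D and J segments. The 6 libraries and 46 gene lists were chosen with earlier results of these data known. Same-numbered KO and WT libraries did not deviate together (correlations of -0.0015, 0.028 and -0.024), so they were not treated as pairs.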

Additional observations from a re-analysis of the deposited data

Results flagged for a closer look

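The change between KO and WT labels differed between tumour and lymph node B cells, by the edgeR interaction test over 12 libraries, for these genes, named for the size of the difference. More positive in the tumour were 4 genes of T cells: Cd8b1 by 6.08, Bcl11b by 5.76, Cd3g by 5.51 and Thy1 by 5.33 on the log2 scale. More negative in the tumour were Igha by -4.26, the kappa V segments Igkv1-88 by -3.88 and Igkv1-110 by -3.82, and the cytokine gene Il1b by -3.50. Hba-a2 also differed, but had 0 reads in WT lymph node libraries, so that no fold is given. The part of T cell transcripts in the first 4 values was not tested.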

How the results depend on the processing

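The count of 5410 genes changed between KO and WT labels was 5166 with DESeq2's Wald test, 5405 with DESeq2 size factors, 5535 with upper-quartile scaling (2482 up, 3053 down, against 2871 and 2539), 5830 without a filter on low counts, 5748 without both libraries that stand apart, and 4405 to 5403 with 1 library left out. Upper-quartile scaling moved the median of all genes by -0.07 on the log2 scale. Same-numbered libraries do not pair, and with a replicate block 5164 genes passed, while the differences from lymph node B cells and tumour Tregs numbered 2960 and 3442, against 3086 and 3686. Without both libraries they numbered 3747 and 4470, with upper-quartile scaling 3113 and 3716. No named gene reversed under the alternatives run, and Appl1 gained a call under upper-quartile scaling. A call was lost under at least 1 of them for Ms4a1, Pax5, Bhlhe41, Cr2, Fas, mt-Nd4, mt-Co1, Tgfb1, Spry2, Nfkb1 and Col4a2, and for the difference of Sv2c from Tregs, and the cause was not tested. Total counts of 6245822 to 11605642 limit genes of a few reads, whose folds moved most.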
